A study of Homo sapiens with 10 samples.

Results

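The human aldehyde dehydrogenases are enzymes that oxidise aldehydes to carboxylic acids. The genes described here, each with every probe set annotated to that gene alone, are ALDH1A1, ALDH1A3, ALDH1B1, ALDH2, ALDH3A1, ALDH3A2, ALDH3B1, ALDH7A1, ALDH9A1 and ALDH18A1. These are 10 of the 19775 genes with such a probe set on the array, and 19 of its 41091 single-gene probe sets. Of these 19, 18 passed the filter on dim values described below and were tested, so that every member gene had at least 1 tested probe set. The exception was 1558649_at of ALDH1A3.

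The family clears aldehydes that arise in the cell or enter it. ALDH1A enzymes make retinoic acid, the ligand of the retinoic acid receptors, from retinaldehyde, mitochondrial ALDH2 oxidises acetaldehyde, and ALDH3 enzymes act on aromatic and fatty aldehydes, including those released by lipid peroxidation. In lung cancer, ALDH activity is widely used as a marker to enrich cells with stem-like growth, and ALDH1A1 and ALDH3A1 are its best known lung members.

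Expression was measured on Affymetrix human arrays, 10 in all, in 2 non-small cell lung cancer lines. A549 is an adenocarcinoma line and HTB-182, which the series title calls H520, a squamous carcinoma line. After 4 h in medium with 10% charcoal-stripped serum, cells of each line were exposed for 3 h to 1 of 5 treatments, with 1 array for each. These were 1 µM of an albumin conjugate of estradiol (estradiol-BSA) with 10 µM tamoxifen, 1 µM estradiol with 10 µM tamoxifen, 1 µM estradiol-BSA, 1 µM estradiol, and vehicle (0.1% ethanol). The albumin conjugate is used to address estrogen receptors at the cell surface, and tamoxifen was added as an estrogen receptor ligand that blocks or modulates them. There was no array of albumin alone or of tamoxifen alone. The titles of the arrays given estradiol with tamoxifen name tamoxifen only, and the source descriptions, which name both, were followed. For A549 the source descriptions run both line names together, and the entry for cell line, A549, was followed. With no replicate cultures stated, each line is represented by 5 arrays of different treatments, and every p-value is set against the scatter among these arrays, part of which may be technical. Array values below are given in the order of treatments above, from estradiol-BSA with tamoxifen to vehicle.

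Intensities were deposited on a linear scale and are compared as log2(intensity + 16), and levels are compared within a probe set only. Probe sets whose mean lay below an intensity of 19.7, the median over all, were not tested. Arrays differed little in scale, with trimmed means within 1.09-fold and medians of 17.5 to 21.5. The A549 vehicle array stood apart, with 479 tested probe sets 2-fold or more away from the rest of its line, 461 of them lower, against 39 to 73 on the other A549 arrays and 0 to 18 on the HTB-182 arrays. None of the aldehyde dehydrogenase probe sets was 2-fold from the rest of its line on any array. Among lineage markers, KRT7, a keratin of glandular epithelium, averaged 3411 in A549 and 18.1 in HTB-182, and SOX2, a squamous lineage transcription factor, averaged 135 in A549 and 4152 in HTB-182. Of the 9 squamous markers 7 had a single-gene probe set, which TP63 and KRT6A lacked, and 3 of these passed the filter. Beside SOX2 these were DSC3, lower in A549 at -0.33 on the log2 scale, and KRT5, which was not called. KRT5 averaged 26.1 in A549 and 22.1 in HTB-182. KRT14, DSG3, PKP1 and SERPINB5 averaged below the filter intensity in both lines, HTB-182 included. NKX2-1, the lung adenocarcinoma lineage factor, did not pass the filter.

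The lines differed widely in their aldehyde dehydrogenases. In A549, 6 genes were higher by at least 1 probe set: ALDH1A1, ALDH3A1, ALDH3A2, ALDH3B1, ALDH2 and ALDH1B1. ALDH7A1 was lower, ALDH9A1 and ALDH18A1 were slightly lower, and ALDH1A3 did not pass the test. By limma's moderated test with Benjamini-Hochberg adjustment over all tested probe sets at 0.05, 14 of the 18 member probe sets passed, 9 higher and 5 lower, against a background of 63.8% of the 23144 tested probe sets (31.5% higher and 32.3% lower). The share that passed is thus not far from that of the array as a whole. The sizes were larger, as 9 of 18 passed and were at least 2-fold apart, against 22.2% of all tested. The median size was 1.07 on the log2 scale, against 0.41. The 9 belong to ALDH1A1, ALDH3A1, ALDH3A2, ALDH3B1 and ALDH7A1. Members were chosen with earlier results of these data known, so these sizes describe the members and are no independent test. The arrays of the lines did not overlap for 13 of 18 member probe sets, against 55.6% of all tested, with A549 above for 9 (27.9% of all) and below for 4 (27.7%). Probe sets of 1 gene share its transcripts and do not count as independent. In bulk RNA of whole cultures, fewer expressing cells and less RNA per cell cannot be told apart.

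**Figure D1:**
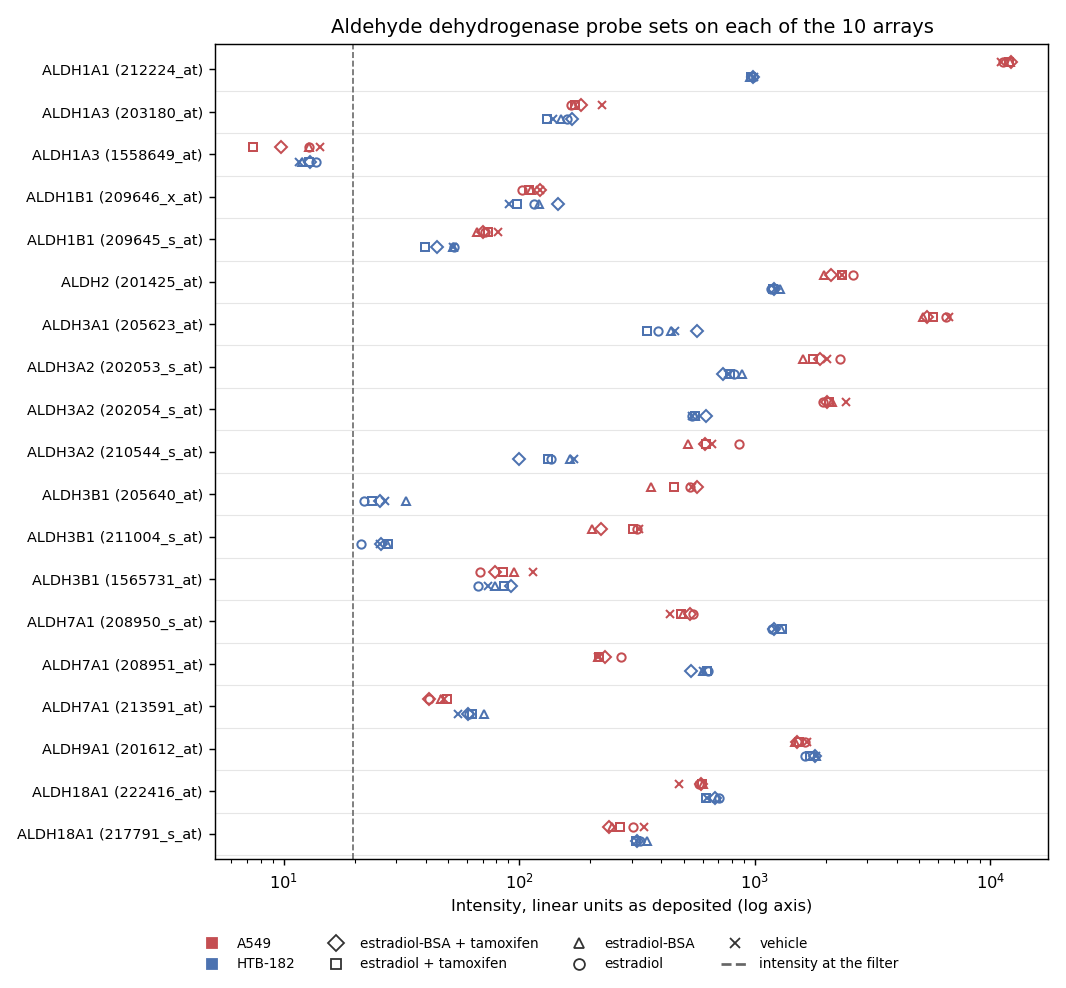
Intensity of each aldehyde dehydrogenase probe set on each array, on a log axis, with A549 (red) above HTB-182 (blue) for each probe set and a symbol for each treatment. ALDH1A1, ALDH3A1 and 2 of the ALDH3B1 probe sets are far higher in A549, ALDH7A1 is lower in A549, and arrays of different treatments lie close together within a line.

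ALDH1A1 encodes the cytosolic retinaldehyde dehydrogenase. Probe set 212224_at read 12194, 12054, 12114, 11317 and 11096 in A549, against 985, 964, 959, 985 and 988 in HTB-182. Every A549 array lay far above every HTB-182 array, and the 5 arrays of a line lay close together. Means were 11755 ± 509 for A549 and 976 ± 13.8 for HTB-182 (SD, n = 5 arrays each), a difference of 11.9-fold (log2 3.57 ± 0.05 SE, limma adjusted p = 1.03e-12). The coefficient of variation over treatments, 4.33% in A549 and 1.42% in HTB-182, was the lowest of the 18 tested member probe sets in either line. As the brightest readings on these arrays were 13393 to 14548, the A549 values lie near the top of the scale.

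ALDH1A3, which makes retinoic acid from the same substrate, did not follow ALDH1A1. Probe set 203180_at read 183, 173, 170, 167 and 226 in A549, against 167, 131, 151, 160 and 139 in HTB-182, so that the lines overlap. A549 was the higher in each of the 5 treatment pairs, but the mean difference of 0.27 ± 0.11 on the log2 scale did not pass the test (limma adjusted p = 0.0574). Without both vehicle arrays it was 0.18 (adjusted p = 0.150), the A549 vehicle array being the highest of all. Its other probe set, 1558649_at, stayed below the filter, at 7.4 to 14.2 in A549 and 11.6 to 13.7 in HTB-182.

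The retinoid genes around these enzymes were read from a list of 26, of which 16 passed the filter by their brightest probe set. In A549, 11 were higher and 1 was lower, with a median log2 difference of 1.38, against 33.6% higher, 31.9% lower and a median of 0.03 over all 12979 genes tested this way. Of the 11 higher genes, 5 had a mean below the filter intensity in HTB-182 and passed it only through A549, so that their direction was set by the filter. Of the 11 list genes at or above the filter intensity in both lines, 6 were higher and 1 was lower. The list joins genes of retinoic acid synthesis with genes of its breakdown and with genes it is known to induce. RARRES1, named for its response to retinoids, averaged 2281 in A549 and 4.85 in HTB-182. TGM2, a transglutaminase induced by retinoic acid, averaged 1891 in A549 and 12.3 in HTB-182. Against the filter intensity of 19.7, taken as a floor for values below it, their means were at least 116-fold and 96.0-fold higher in A549. Other folds given as at least are such ratios of means, and they take no account of the spread among arrays. DHRS3, which turns retinaldehyde back to retinol, averaged 839 in A549 and 34.7 in HTB-182 (log2 4.03 ± 0.20). CYP26B1, which degrades retinoic acid, averaged 184 in A549 and 6.72 in HTB-182, at least 9.33-fold higher. RBP4, the retinol carrier of plasma, averaged 219.8 in A549 and 8.52 in HTB-182, at least 11.2-fold higher by the means. Its A549 arrays ran from 34.3 to 288, so that the lowest lay near the floor. RARB, the inducible retinoic acid receptor, was at 2.09 ± 0.10 on the log2 scale. The lower gene was RDH11, a retinaldehyde reductase, at -0.40. Adjusted p from limma ran from 1.41e-12 for TGM2 to 0.00556 for RARG among the list genes that passed.

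ALDH3A1, ALDH3A2 and ALDH3B1 formed the other group that was higher in A549. ALDH3A1, the cytosolic enzyme for aromatic aldehydes and lipid peroxidation products that also makes up much of the soluble protein of the cornea, had the largest log2 difference between the lines at the pseudocount of 16. At a pseudocount of 1, 205640_at of ALDH3B1 was larger, at 4.17 against 3.75 for ALDH3A1. Probe set 205623_at read 5405, 5694, 5180.2, 6476 and 6692 in A549, against 569, 349, 441, 388 and 460.1 in HTB-182. No array of A549 came near one of HTB-182, and the means of 5889 ± 664 in A549 and 441 ± 83.7 in HTB-182 were 13.0-fold apart (log2 3.70 ± 0.11, limma adjusted p = 1.23e-10).

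ALDH3A2, the membrane-bound fatty aldehyde dehydrogenase whose loss causes Sjögren-Larsson syndrome, was higher by each of its probe sets. Probe set 202054_s_at read 2017, 2074, 2133, 1954 and 2435 in A549, against 624, 556, 559.7, 539 and 542 in HTB-182 (3.68-fold, log2 1.88 ± 0.08, limma adjusted p = 2.72e-09). The second, 202053_s_at, averaged 1918 ± 270.4 in A549 and 796 ± 55.3 in HTB-182 (log2 1.24 ± 0.09). The third, 210544_s_at, averaged 655 ± 125 in A549 and 140.4 ± 28.1 in HTB-182 (log2 2.10 ± 0.14). Lines did not overlap by any of these probe sets, while the size of the difference ran from 2.37-fold to 4.29-fold between them. In the RefSeq gene table of GRCh38.p14, ALDH3A1 and ALDH3A2 lie on the same chromosome with 1 protein-coding gene between them, SLC47A2.

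ALDH3B1 oxidises medium- and long-chain aldehydes, and its probe sets disagreed. Probe set 205640_at read 568, 456, 364, 529.6 and 540.5 in A549, against 25.5, 23.6, 33.1, 22.0 and 26.9 in HTB-182 (11.9-fold, log2 3.58 ± 0.14, limma adjusted p = 1.07e-09). By 211004_s_at it averaged 274 ± 56.4 in A549 and 25.6 ± 2.60 in HTB-182 (6.87-fold, log2 2.78 ± 0.13). The HTB-182 levels of both lie just over the filter, and their differences depend on the pseudocount, at 2.61 to 4.17 and 1.90 to 3.35 over pseudocounts of 64 and 1. The third probe set, 1565731_at, averaged 88.5 ± 17.6 in A549 and 79.5 ± 10.2 in HTB-182 and did not pass (0.12, adjusted p = 0.407).

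A list of 10 other genes of fatty aldehyde and fatty alcohol metabolism had 8 tested members, of which 5 were higher in A549 and 0 lower, against 33.6% and 31.9% of all genes, with a median of 0.83. CYP4F3 and CYP4F2 passed the filter only through A549, and of the 6 genes above it in both lines 3 were higher. CYP4F3, a fatty acid omega-hydroxylase, averaged 300.4 in A549 and 8.52 in HTB-182, at least 15.2-fold higher against the floor, and PHYH, the first enzyme of peroxisomal alpha-oxidation, averaged 838 in A549 and 283 in HTB-182 (log2 1.52 ± 0.10). CYP4F12 and HACL1 were at 1.15 and 0.89, and CYP4F2 averaged 36.6 in A549 and 14.9 in HTB-182, at least 1.86-fold higher. Among 11 other genes that deal with aldehydes of lipid peroxidation, 8 were tested, 6 of them higher and 2 lower, against the same shares of all genes. Their median was 0.85. AOX1 passed the filter only through A549, and of the 7 genes above it in both lines 5 were higher and 2 lower. AKR1B10, an aldo-keto reductase that reduces aldehydes to alcohols, averaged 12361 in A549 and 31.4 in HTB-182 (8.03 ± 0.08), and PTGR1, a reductase of unsaturated aldehydes, averaged 4980.0 in A549 and 133.9 in HTB-182 (5.06 ± 0.08). The A549 readings of AKR1B10, and those of AKR1C1, which averaged 13177 in A549 and 8810.1 in HTB-182, lie near the brightest of these arrays. CBR1 and CBR3 were at 1.85 and 1.12. AOX1, dim in both lines, averaged 32.8 in A549 and 16.3 in HTB-182, at least 1.67-fold higher against the floor by the means. Its A549 arrays ran from 21.3 to 42.9. GSTA4, the glutathione transferase for 4-hydroxynonenal, and GPX4, the lipid hydroperoxide peroxidase, were lower at -0.96 and -0.37. Adjusted p from limma was 0.00483 or less for each of these genes that is called higher or lower.

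Both acetaldehyde enzymes of the mitochondrion were measured. ALDH2 by 201425_at read 2108, 2341, 1974, 2606 and 2347 in A549, against 1203, 1193, 1278, 1177 and 1218 in HTB-182. All A549 arrays lay above all HTB-182 arrays, and the mean of 2275 ± 244 in A549 was 1.86-fold that of 1214 ± 39.0 in HTB-182 (log2 0.89 ± 0.08, limma adjusted p = 1.38e-06). ALDH1B1, which shares much of its sequence with ALDH2, had probe sets that disagreed. By 209645_s_at it averaged 72.6 ± 5.48 in A549 and 48.4 ± 5.83 in HTB-182, with no overlap (0.46 ± 0.10, adjusted p = 0.00162). The brighter 209646_x_at averaged 114 ± 8.50 in A549 and 114 ± 21.5 in HTB-182 and did not pass (0.01, adjusted p = 0.936). The suffix of that probe set marks probes that can bind other transcripts.

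In the list of 16 alcohol dehydrogenases and aldehyde-forming enzymes, 8 were tested, 4 higher and 2 lower in A549, with a median of 0.45, near the 33.6% higher and 31.9% lower of all genes. SMOX, a polyamine oxidase, ADH1C, a class I alcohol dehydrogenase, and CAT, catalase, were higher at 1.29, 1.11 and 0.76. MAOA, a monoamine oxidase, averaged 60.5 in A549 and 18.8 in HTB-182, just below the filter, at least 3.07-fold higher. It passed the filter only through A549, and of the 7 genes above it in both lines 3 were higher and 2 lower. MAOB, the other monoamine oxidase, averaged 46.8 in A549 and 219 in HTB-182 (-1.92 ± 0.14, limma adjusted p = 2.79e-07), and ADH5, the formaldehyde-clearing class III enzyme, was at -0.72.

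ALDH7A1 was the member that was clearly lower in A549. It oxidises the semialdehyde of lysine breakdown, and its loss causes pyridoxine-dependent epilepsy. Probe set 208950_s_at read 532, 484, 495, 545 and 435 in A549, against 1203, 1306, 1296, 1183 and 1224 in HTB-182, with every A549 array below every HTB-182 array. The means of 498 ± 43.3 in A549 and 1243 ± 55.5 in HTB-182 gave a log2 difference of -1.29 ± 0.08 (limma adjusted p = 1.02e-07). Probe set 208951_at gave a like size, with 230.0 ± 23.2 in A549 and 601 ± 37.3 in HTB-182 (-1.33 ± 0.09). The dimmest, 213591_at, averaged 45.3 ± 3.71 in A549 and 62.0 ± 5.82 in HTB-182 (-0.35 ± 0.09, adjusted p = 0.00719).

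ALDH9A1 oxidises the trimethylaminobutyraldehyde of carnitine synthesis. By 201612_at it read 1511, 1536, 1478, 1633 and 1670 in A549, against 1794, 1724, 1824, 1635 and 1823 in HTB-182. The lines overlapped, as the A549 vehicle array lay above the HTB-182 estradiol array. The difference of -0.17 ± 0.07 passed the test (limma adjusted p = 0.0456) but not in 8 of 20 other settings, 6 of them the removal of a single array. Removing either array of a treatment gives the same line difference, so these removals are not separate checks. Of 9 genes for neighbouring steps of lysine, choline and carnitine metabolism, 5 were tested, 3 of them lower and 1 higher in A549, against 31.9% and 33.6% of all genes, with a median of -0.75. Of these 3, PIPOX passed the filter only through HTB-182. PIPOX, which oxidises pipecolic acid on the lysine route that leads to the ALDH7A1 substrate, averaged 9.84 in A549 and 482 in HTB-182, at least 24.4-fold lower in A549 against the floor. GCDH, a later lysine enzyme, was at -0.998, CHDH, the choline dehydrogenase, at -0.75 on the log2 scale and TMLHE, the first enzyme of carnitine synthesis, at 0.93, with limma adjusted p of 1.08e-04 or less for these genes.

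ALDH18A1 encodes pyrroline-5-carboxylate synthase, a reductive enzyme that starts proline and ornithine synthesis from glutamate. By 222416_at it read 594, 594, 605, 582 and 478 in A549, against 679, 618.5, 692, 706 and 630 in HTB-182, and the lines did not overlap. The difference of -0.22 ± 0.08 passed the test (limma adjusted p = 0.0385), but it no longer did when any 1 of the 10 arrays was left out. Probe set 217791_s_at was similar in size (-0.21 ± 0.11, adjusted p = 0.106). Of the 8 genes listed beside it for proline and glutamine metabolism, 5 were tested, 0 of them higher and 2 lower. Over all genes, 33.6% were higher and 31.9% lower. GLUL, glutamine synthetase, averaged 506 in A549 and 2811 in HTB-182 (-2.45 ± 0.09), PYCR1, which completes proline synthesis, was at -0.60, and the other 3 did not pass.

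**Figure D2:**
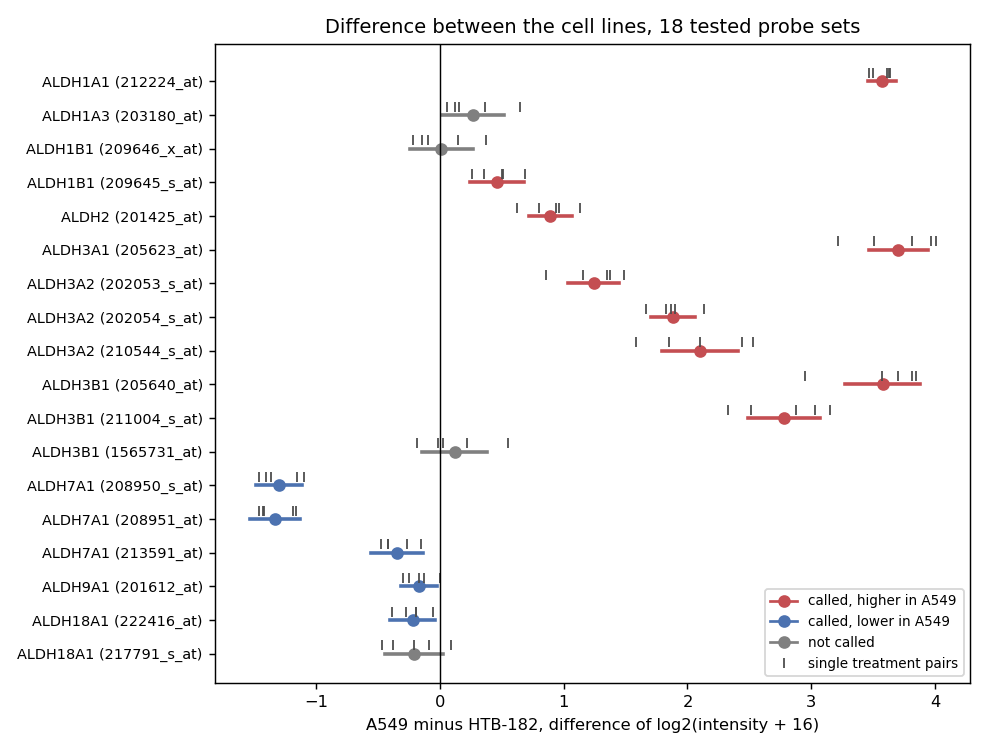
Difference of log2(intensity + 16), A549 minus HTB-182, for each tested aldehyde dehydrogenase probe set, with its 95% interval from limma. ALDH3A1, ALDH3B1 and ALDH1A1 reach 3.70, 3.58 and 3.57, while the ALDH7A1 probe sets lie between -1.33 and -0.35.

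Of the 9 other family genes, 6 were tested, 1 of them higher and 2 lower in A549, with a median of 0.13, against 33.6% higher and 31.9% lower of all genes. ALDH5A1, which oxidises succinic semialdehyde, averaged 352 in A549 and 188 in HTB-182 (0.84 ± 0.11), ALDH6A1, the methylmalonate semialdehyde enzyme, averaged 135 in A549 and 227 in HTB-182 (-0.74 ± 0.14), and ALDH1L1, a folate enzyme, averaged 41.1 in A549 and 72.9 in HTB-182 (-0.64 ± 0.11). Adjusted p from limma was 6.06e-04 or less for each.

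**Figure D3:**
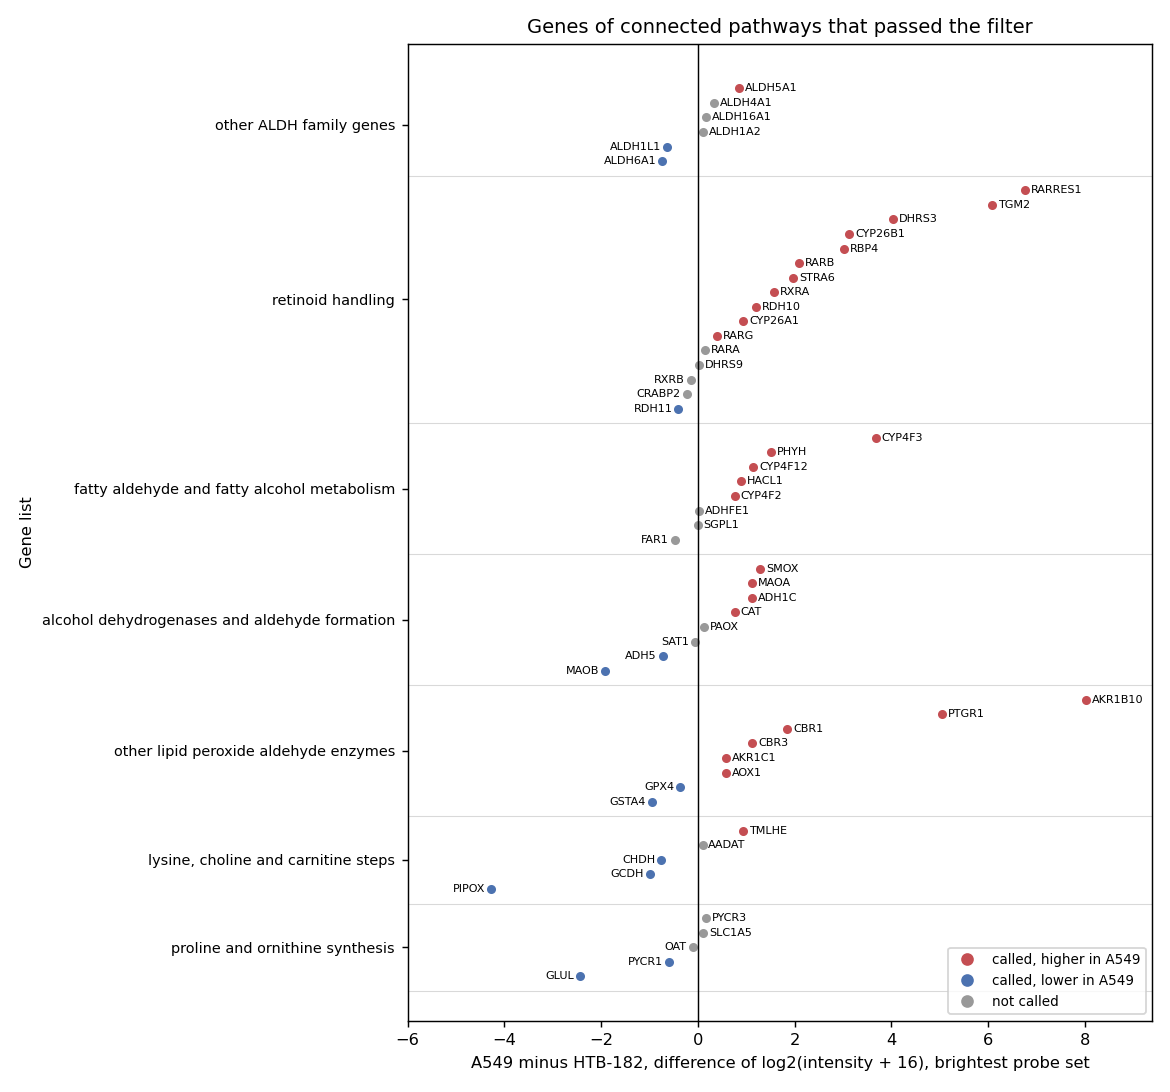
Difference of log2(intensity + 16), A549 minus HTB-182, for the tested genes of lists around the aldehyde dehydrogenases, by the brightest probe set of each gene. AKR1B10, RARRES1, TGM2 and PTGR1 lie furthest to the right, and differences of genes below the filter intensity in 1 line, such as RARRES1, TGM2 and PIPOX, are values on this scale and not bounds.

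The promoters of 4 members are shown because these genes span the range of line differences: ALDH1A1, higher in A549, its paralogue ALDH1A3, which did not pass the test, ALDH3B1, higher in A549 by 2 of 3 probe sets, and ALDH7A1, lower in A549. Each line gives the 250 bases before the first start, 5′ to 3′ on the gene's strand, from RefSeq on GRCh38.p14, with motif letters in capitals (CCAAT and GCGTG, either strand).
ALDH1A1: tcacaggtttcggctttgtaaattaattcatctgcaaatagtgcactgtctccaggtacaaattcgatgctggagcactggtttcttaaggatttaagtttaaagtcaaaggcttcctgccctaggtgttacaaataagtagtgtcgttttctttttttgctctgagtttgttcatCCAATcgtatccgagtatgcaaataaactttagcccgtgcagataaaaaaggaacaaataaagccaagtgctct
ALDH1A3: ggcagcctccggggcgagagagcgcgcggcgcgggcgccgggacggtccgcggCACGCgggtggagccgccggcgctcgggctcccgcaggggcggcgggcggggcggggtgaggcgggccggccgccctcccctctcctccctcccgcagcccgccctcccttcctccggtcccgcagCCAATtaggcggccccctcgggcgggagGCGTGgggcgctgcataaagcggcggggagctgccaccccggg
ALDH3B1: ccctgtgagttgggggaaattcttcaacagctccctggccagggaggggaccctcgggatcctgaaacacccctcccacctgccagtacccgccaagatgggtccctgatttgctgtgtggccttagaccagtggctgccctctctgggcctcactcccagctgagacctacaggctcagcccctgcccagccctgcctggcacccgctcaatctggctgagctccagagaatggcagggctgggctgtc
ALDH7A1: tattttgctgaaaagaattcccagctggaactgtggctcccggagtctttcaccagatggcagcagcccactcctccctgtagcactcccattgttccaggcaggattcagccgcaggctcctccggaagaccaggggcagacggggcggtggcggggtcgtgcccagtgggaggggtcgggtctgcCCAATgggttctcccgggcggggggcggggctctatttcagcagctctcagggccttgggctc
They lie at chr9:72953054-72953303 on the minus strand for ALDH1A1, chr15:100879581-100879830 on the plus strand for ALDH1A3, chr11:68008297-68008546 on the plus strand for ALDH3B1 and chr5:126595220-126595469 on the minus strand for ALDH7A1.

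The paralogues ALDH1A1 and ALDH1A3 differ in base composition. GC content was 38.4% in the ALDH1A1 window and 82.4% in that of ALDH1A3, with 63.6% for ALDH3B1, against a median of 58.0% over 35116 RefSeq promoters. Of the 8 members matched to these promoters, 4 held the CCAAT box by their first start (ALDH1A1, ALDH1A3, ALDH1B1 and ALDH7A1), against 32.0% of all promoters. The box lay 74, 71 and 63 bases before the start of ALDH1A1, ALDH1A3 and ALDH7A1. In ALDH1B1 it lay 26 bases before the start, on the opposite strand. By the first start, the core of the xenobiotic response element, GCGTG, was found in 1 of the 8, ALDH1A3 (32.2% of all promoters, which count every start), 197 bases before the start on the opposite strand and 43 bases before it. The E-box CACGTG was found by the first start in 1 of the 8, ALDH18A1 (6.34% of all). The second start of ALDH3A2 held the CCAAT box 30 bases, the E-box 47 bases and the xenobiotic response element core 76 bases before it. No first-start window of the 8 held the antioxidant response element core TGACNNNGC (10.9% of all), the estrogen response half-site GGTCA (32.6%) or TATAAA (10.7%). ALDH2 and ALDH3A1 had no entry among these promoters, so their promoters were not searched for any motif. Motifs were sought on both strands and do not overlap one another in these windows. A match describes letters in this window and no binding.

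The treatments were compared over both lines to ask whether estrogen, free or coupled to albumin, and tamoxifen changed these genes within 3 h. None of the 18 member probe sets passed the limma test in any of the 6 comparisons below or in either test of a difference between the lines, and 0 of 18 had an unadjusted p under 0.05 in any of them. The background was 0% of all tested probe sets in each treatment comparison. At an unadjusted p under 0.05, against 0 of 18 members, it was 4.83% for estradiol, 6.78% for estradiol-BSA, 4.67% for estradiol with tamoxifen and 8.75% for estradiol-BSA with tamoxifen, each against vehicle. It was 3.6% for estradiol-BSA against estradiol, 1.69% for tamoxifen, 2.09% for line by tamoxifen and 13.6% for line by estrogen. A comparison of a treatment with vehicle rests on 2 pairs of arrays, and all 4 share the vehicle arrays. The unadjusted 95% intervals of the member differences from vehicle ended as far as 1.83-fold below and 1.63-fold above vehicle, so changes of that size could have gone unseen.

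Estradiol minus vehicle was largest for 1565731_at of ALDH3B1, at -0.38 ± 0.19 (SE) on the log2 scale (limma adjusted p = 0.899). That probe set read 68.2 with estradiol and 115 with vehicle in A549, a pair difference of -0.64, and 66.5 with estradiol and 73.4 with vehicle in HTB-182, a pair difference of -0.12. Both pairs were below 0, by unequal amounts. The other ALDH3B1 probe sets, 205640_at and 211004_s_at, differed less, each at -0.10. Over the 18 probe sets, 8 were above vehicle and 10 below, and the median of -0.03 was near that of all tested probe sets, -0.05.

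With estradiol-BSA the largest difference from vehicle was -0.28 ± 0.21, for 211004_s_at of ALDH3B1 (limma adjusted p = 0.668). The pair in A549 was the larger, where the probe set read 203 with estradiol-BSA and 324 with vehicle (-0.63), while in HTB-182 it read 27.6 with estradiol-BSA and 25.7 with vehicle (0.06). The smallest p belonged to ALDH18A1 by 222416_at, at 0.23 ± 0.13 (adjusted p = 0.658). It read 605 with estradiol-BSA and 478 with vehicle in A549, and 692 with estradiol-BSA and 630 with vehicle in HTB-182. In A549 the vehicle array was the lowest of 5 for this probe set, so all 4 treated arrays lay above it. By 217791_s_at of the same gene it was the highest, so all 4 lay below it. That probe set was at -0.15 with estradiol-BSA, with -0.43 in A549 and 0.13 in HTB-182.

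With tamoxifen present as well, the largest difference from vehicle was in ALDH3A1 for estradiol, at -0.31 ± 0.17 (limma adjusted p = 0.792). ALDH3A1 read 5694 with estradiol and tamoxifen and 6692 with vehicle in A549, and 349 with estradiol and tamoxifen and 460.1 with vehicle in HTB-182. Both pairs were lower, at -0.23 in A549 and -0.38 in HTB-182. For estradiol-BSA with tamoxifen the largest was -0.39 ± 0.22, for 210544_s_at of ALDH3A2 (adjusted p = 0.583), with -0.09 in A549 and -0.68 in HTB-182. By 202054_s_at of the same gene, the HTB-182 array of this treatment was instead the highest of its line, at 624.

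The A549 vehicle array, which stood apart over the array as a whole, entered each of these comparisons. For 8 of 18 member probe sets it lay above all 4 treated A549 arrays, against 46.8% of all tested, and for 3 it lay below them, against 18.1%. In HTB-182 the vehicle array lay above the treated arrays for 2 of 18 (17.8% of all) and below them for 2 (24% of all). The members thus shared the position of that array with the rest of the probe sets, and its part in the differences from vehicle was not tested.

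The 2 estrogen forms, which differ by the coupling of estradiol to albumin, were compared at the same 1 µM and 3 h, as 1 pair of compounds over 2 pairs of arrays. Estradiol-BSA minus estradiol was largest for 1565731_at of ALDH3B1, at 0.30 ± 0.19 (limma adjusted p = 0.991), with 0.40 in A549 and 0.20 in HTB-182. The other ALDH3B1 probe sets had the opposite sign, at -0.08 for 205640_at and -0.19 for 211004_s_at. The 95% intervals of all 18 member probe sets lay between -0.71 and 0.72 on the log2 scale, or within 1.64-fold to either side, so a difference of that size or less between the forms could have gone unseen. In A549 the estradiol-BSA array was below the estradiol array for ALDH3A2 by 210544_s_at, at 523 with estradiol-BSA and 859.5 with estradiol, and for ALDH3B1 by 205640_at, at 364 with estradiol-BSA and 529.6 with estradiol. In HTB-182 the same probe sets were higher with estradiol-BSA, at 164 and 33.1 with estradiol-BSA and 136 and 22.0 with estradiol.

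Tamoxifen added to either estrogen form was compared over 4 pairs of arrays. The largest member difference was -0.23 ± 0.15, for 210544_s_at of ALDH3A2 (limma adjusted p = 0.9999), with pairs of 0.22 beside estradiol-BSA and -0.46 beside estradiol in A549, and of -0.63 beside estradiol-BSA and -0.04 beside estradiol in HTB-182. The pairs have no common direction. Of the 18 probe sets, 1 had the same sign in all 4 pairs, against 13% of all tested, and unadjusted 95% intervals ended as far as 1.48-fold below and 1.35-fold above the arrays without tamoxifen.

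Whether the lines differed in their response was tested with added terms. For tamoxifen the largest member term was -0.36 ± 0.24, for 1565731_at of ALDH3B1 (limma adjusted p = 0.984), and 0% of all tested probe sets passed. The other ALDH3B1 probe sets did not share a sign, at 0.20 for 205640_at and -0.14 for 211004_s_at. For estrogen against vehicle it was -0.54 ± 0.30, for 203180_at of ALDH1A3 (adjusted p = 0.439), where 1.91% of all tested passed. ALDH1A3 read 170 with estradiol-BSA, 167 with estradiol and 226 with vehicle in A549, and 151 with estradiol-BSA, 160 with estradiol and 139 with vehicle in HTB-182. This term fits each lone vehicle array exactly, so it rests on the assumption that vehicle arrays vary like treated ones. Of the listed pathway genes, RBP4 (2.54) and FAR1 (1.26), a fatty acyl reductase, passed this test, and none passed in a treatment comparison. RBP4 ran from 34.3 to 288 in A549 and from 7.57 to 10.3 in HTB-182, below the filter intensity. FAR1 ran from 157 to 527 in A549 and from 491 to 543 in HTB-182. SOX2, a lineage marker and not a pathway gene, was called as well, with a term of 2.04. It ran from 36.1 to 191.6 in A549 and from 3843 to 4378 in HTB-182. The part of the A549 vehicle array, which stood apart, in these terms was not tested.

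**Figure D4:**
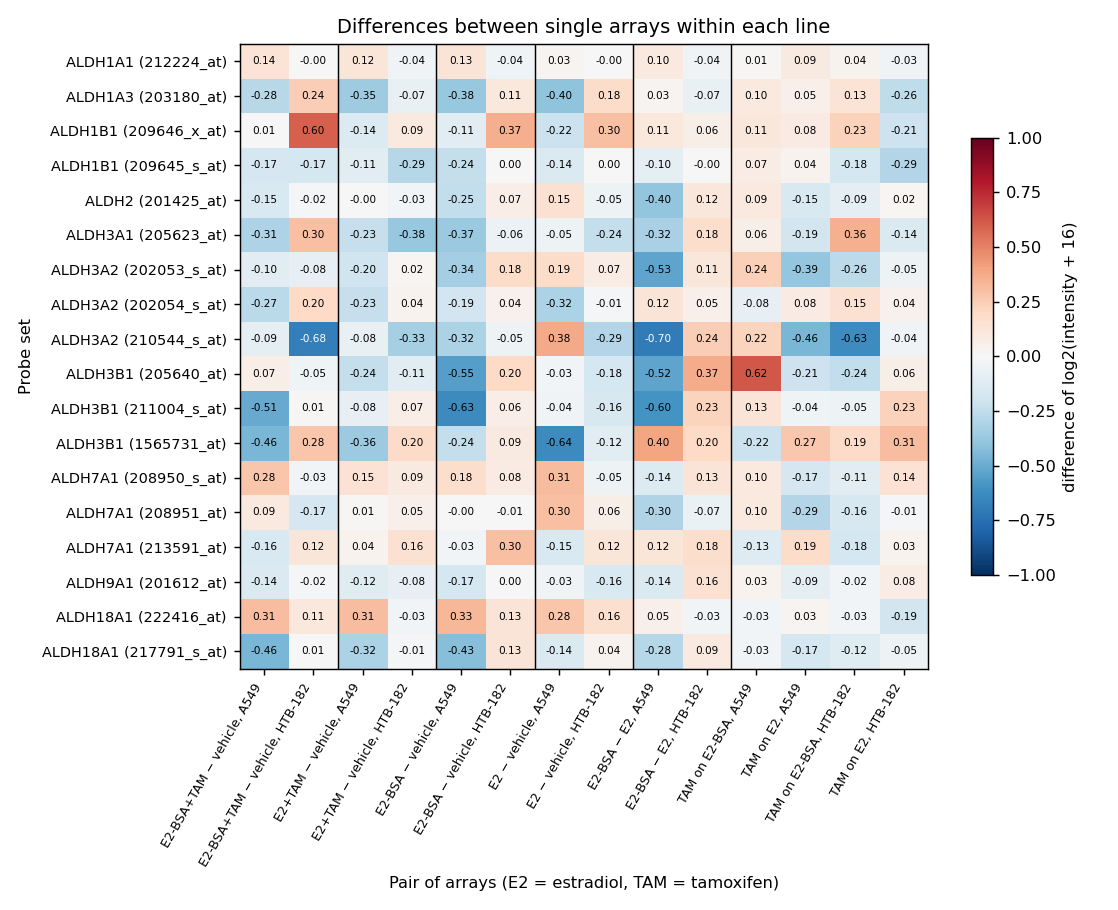
Difference of log2(intensity + 16) between the arrays of each pair, with a row for each tested aldehyde dehydrogenase probe set and a column for each pair, red for higher and blue for lower with the first-named treatment. ALDH1A1 stays near 0 throughout, and the strongest cell is a single pair of ALDH3A2, at -0.70 for estradiol-BSA minus estradiol in A549.

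Variation among treatments differed between members. The SD of the log2 values within a line, pooled over the lines and taken for the brightest probe set of each gene, was lowest for ALDH1A1, at 0.05, and highest for ALDH3A1, at 0.21. In A549 the ALDH1A1 readings lie near the brightest of these arrays, and the part of that in their small spread was not tested. Over the 18 probe sets the coefficient of variation had a median of 10.4% in A549 and 8.17% in HTB-182, and it was the larger in A549 for 13 of 18. Genes whose values moved most like those of ALDH3A1 over the 10 arrays, after the mean of each line was taken off, were ACSF3, a mitochondrial acyl-CoA synthetase (Pearson r = 0.957), SF3B4, a splicing factor (0.937), and TSPAN4, a tetraspanin (0.936). They were the top 3 of 12978 genes compared, of which 126 exceeded 0.8. The genes share these arrays and their scale, and without the A549 vehicle array the values were 0.952, 0.937 and 0.957.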

How the data were processed

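The authors deposited a single table of intensities on a linear scale for 10 Affymetrix arrays of biotin-labelled total RNA, for 54675 probe sets. They were made with MAS5, per the submitters' processing notes, in a version and with a scaling target that the sources used here do not state. Arrays were assigned to a cell line and a treatment by their source descriptions. The 62 control probe sets were left out. The platform annotation gives a single gene for 41091 probe sets, which were used, several genes for 1801 and no gene for 11721. All 10 member symbols matched the RefSeq gene table of GRCh38.p14, and promoter sequences are RefSeq's on the same build.

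Intensities were taken as log2(intensity + 16), a scale on which the fold changes of dim genes come out too small. Probe sets with a mean at or above the median of all (intensity 19.7) were tested. Models were fitted in R 4.3.3 with limma 3.58.1, using moderated statistics with a trend on intensity, and p-values were adjusted after Benjamini and Hochberg over all 23144 tested probe sets. The additive model held cell line and treatment and left 4 residual degrees of freedom. Added terms for line by tamoxifen and line by estrogen left 3 and 2. The cell line pairs the arrays of a treatment comparison, since both come from the same line. Precision is limited by the number of arrays, as there is 1 per line and treatment. For pathway and marker lists each gene was represented by its brightest probe set. The scripts were tested on simulated data.

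The genes named are the 10 members and, by rule, the member with the largest difference and the smallest p in each treatment comparison, up to 6 list genes of largest size between the lines, list genes called in any other comparison, and the 3 genes most like the member that differed most. Further list genes and lineage markers named in the text were chosen after their values were seen. The members and lists were chosen with earlier results of these data known, so that no list or test was set independently of them. Alternatives were pseudocounts of 1 and 64, no filter and a filter at the 75th percentile, quantile normalization, centring on the median, the brightest probe set alone, no trend, array quality weights, no line block, both vehicle arrays left out, and each array left out in turn.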

Additional observations from a re-analysis of the deposited data

Results flagged for a closer look

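Among the 19 aldehyde dehydrogenase probe sets, each array was compared with the other arrays of its line. In 38 such groups of 5 arrays, 2 had an array far from the others, by a gap to its neighbour above 0.71 of the whole range, and chance alone gives about 1 in 20 groups. ALDH3A2 by 202054_s_at read 623.5 on the HTB-182 array given estradiol-BSA with tamoxifen, against 538.9 to 559.7 on the other HTB-182 arrays (gap of 0.741 of the range). The other ALDH3A2 probe sets were lowest on that array, by 202053_s_at at 729.5 and by 210544_s_at as well. ALDH18A1 by 222416_at read 477.7 on the A549 vehicle array, against 582.3 to 605.2 on the treated A549 arrays (gap of 0.837), while the other probe set of the gene, 217791_s_at, was highest there, at 338. The probe sets of both genes thus moved in opposite directions on the array concerned.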

How the results depend on the processing

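Between the lines, 12 to 15 member probe sets passed under 9 alternatives that kept several probe sets per gene, and 12 to 14 when single arrays were left out. In the main setting 14 passed, against 63.8% of all tested probe sets. With the brightest probe set alone, 8 of 10 genes passed. By that probe set, 33.6% of all genes were higher and 31.9% lower in the main setting. The calls of ALDH1A1, ALDH2, ALDH3A1, ALDH3A2, ALDH7A1, ALDH3B1 (205640_at and 211004_s_at) and ALDH1B1 (209645_s_at) held in every alternative in which the probe set was tested. ALDH9A1 lost its call in 8 of 20 settings (adjusted p from 0.00414 to 0.149) and ALDH18A1 by 222416_at in 14 of 20 (0.0178 to 0.0990), while 217791_s_at gained a call in 6 of 19 and 203180_at of ALDH1A3 in 3 of 20. These settings are not all separate checks, as leaving out either array of a treatment gives the same line difference. The uncalled difference of ALDH1B1 by 209646_x_at turned negative with quantile normalization (-0.0287), centring (-0.0450), array weights (-0.0103) and without both vehicle arrays (-0.0786), and ranged from -0.0786 to 0.0694 when single arrays were left out. The causes were not tested. In the treatment comparisons 0 member probe sets passed under every alternative, including those without the line block that pairs the arrays (no replicate block, 0), and for cell line by estrogen 0 to 1 when single arrays were left out. That 1 was ALDH3A2 by 202053_s_at, with a negative term without the estradiol array of A549 (adjusted p = 0.0484) or of HTB-182 (0.0446). With the vehicle array of HTB-182 left out, each comparison with vehicle rests on the A549 vehicle array alone, which stood apart from its line. The medians over all probe sets were then -0.13 to -0.15, against -0.05 to -0.07 with all arrays. Such a fit cannot tell a treatment from the position of that array, and its calls are not read here. The cell line by estrogen term could not be fitted without a vehicle array, and its median over all probe sets was -0.12, or -0.04 after quantile normalization. With 1 array per line and treatment, a response of 1 line alone adds to the spread, and unadjusted 95% intervals of the members ended as far as 1.83-fold from vehicle.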

Other observations

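Markers of cells that these cultures should not hold were mostly below the filter. Of 6 fibroblast markers 2 passed it, and COL1A1, a collagen chain, averaged 382 in A549 and 20.6 in HTB-182 (log2 3.42 ± 0.12, limma adjusted p = 4.32e-10). Of 8 blood and endothelial markers 4 passed it, and CD14, a coreceptor for bacterial lipopolysaccharide, averaged 82.2 in A549 and 10.6 in HTB-182, at least 4.17-fold higher against the filter intensity of 19.7 (adjusted p = 7.07e-07), while CD3E, HBB and PECAM1 were not called. Of 8 alveolar and adenocarcinoma markers 7 passed, 4 of them higher and 1 lower in A549, the lower being FOXA2, an endodermal transcription factor, at -0.92. KRT7 passed the filter only through A549, and of the 6 markers above it in both lines 3 were higher and 1 was lower. The part of these genes in the differences of the aldehyde dehydrogenases was not tested.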
